A study of Homo sapiens with 12 samples.

Results

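The genes described here are 41 genes of amino acid supply: 18 cytosolic aminoacyl-tRNA synthetases, the tRNA export factor XPOT, 14 enzymes of amino acid synthesis and one-carbon metabolism, and 8 amino acid transporters. They were chosen by symbol from a list of known functions, with earlier results of these data known, so the choice was not independent of the data. All 41 were found among the 22650 gene symbols that occur in any library. The data are RNA-seq of Panc1 and MiaPaCa2, established lines of human pancreatic ductal adenocarcinoma, each as an ASAP2 knockout and as wild type. ASAP2 is an Arf GTPase-activating protein with roles in vesicle traffic and focal adhesions. The 4 groups are ASAP2 knockout Panc1, wild-type Panc1, ASAP2 knockout MiaPaCa2 and wild-type MiaPaCa2, with 3 libraries each. No drug or other agent is named for any group. The sources used here do not give how the knockout was made, how many clones were used, or whether replicate libraries stem from separate cultures. The p-values therefore measure the spread between these libraries, which may be technical.

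An aminoacyl-tRNA synthetase joins an amino acid to its tRNA, so that the ribosome can use it. Cells take up amino acids through membrane transporters and make the non-essential ones themselves, serine and glycine from a glycolytic intermediate through PHGDH, PSAT1 and PSPH, and asparagine from aspartate through ASNS. Many of these genes share a regulator: when uncharged tRNA, unfolded proteins or other stresses lead to phosphorylation of the initiation factor eIF2, the transcription factor ATF4 is made and binds C/EBP-ATF response elements in their promoters.

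Values are FPKM as deposited, a level per length of transcript, scaled to the fragments mapped. A change is the difference of 2 group means of log2(FPKM + 1), a scale on which changes of genes with low levels are understated. A gene was called higher or lower at a Benjamini-Hochberg adjusted p below 0.05 over the 13340 genes tested with limma, and all 41 genes were tested. Libraries listed 17958 to 19105 genes, 11842 to 12500 of them at 1 FPKM or more. Read depth is unknown, since the values are FPKM and no whole reads could be recovered from them. In cell cultures sequenced in bulk, fewer cells with a transcript and less of it per cell cannot be told apart.

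ASAP2 itself averaged 13.8 ± 0.978 FPKM in Panc1 knockout and 36.9 ± 2.04 FPKM in Panc1 wild type (SD, n = 3 each), a change of -1.36 (adjusted p = 1.46e-08). In MiaPaCa2 it averaged 12.3 ± 1.29 FPKM in knockout and 13.5 ± 0.320 FPKM in wild type, a change of -0.13 that did not pass the test (adjusted p = 0.197), so the transcript does not check the MiaPaCa2 labels. The epithelial keratins KRT8, KRT18 and KRT19 were present in all 12 libraries. EPCAM was at 0 and KRT7 at or below 0.0810 FPKM in each MiaPaCa2 library. The leukocyte gene PTPRC, the endothelial PECAM1, the acinar PRSS1 and the hepatocyte ALB stayed at or below 0.0270 FPKM in each library. Of the 8 markers of other cell types, CD3E, DCN and INS are not analysed here, and CD68, a lysosomal membrane protein best known from macrophages, averaged 164 ± 2.73 FPKM in Panc1 knockout and 175 ± 4.23 FPKM in Panc1 wild type, and 18.7 ± 0.531 FPKM in MiaPaCa2 knockout and 26.7 ± 1.5 FPKM in MiaPaCa2 wild type (SD, n = 3 each). KRT8 moved with the knockout by 0.46 in Panc1 and -0.50 in MiaPaCa2, KRT18 by 0.38 and -0.31, and KRT19 by -1.09 and -1.57. The part of these markers in the changes described here was not tested.

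Some libraries stood apart across the 41 genes. MiaPaCa2 knockout library 2 was the highest of its group in 30 of 41 genes, against 35.1% of all genes tested. MiaPaCa2 wild-type library 1 was the highest of its group in 27 of 41, against 41.5% of all genes. In Panc1 knockout, library 1 was the highest in 26 genes and library 3 the lowest in 32, against 47% and 36% of all genes. The libraries of Panc1 wild type were close to each other, with a summed level of the 41 genes between 1586 and 1589.9 FPKM.

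Promoter sequences are shown because the element that ATF4 and its C/EBP partners bind is the regulatory feature for which these genes are known. RefSeq promoter windows of the GRCh38.p14 annotation, 300 bases from 250 before to 50 after a start site, were found for 31 of the 41 genes (45 windows). DARS, LARS, VARS, YARS, PSPH, SHMT2, ALDH1L2, GPT2, PYCR1 and SLC7A11 have no window in the table. The core TGATGNAA, searched on both strands, was present in 14 of the 45 windows, 31.1%, and in 3.62% of all 35116 windows of the table. By gene it was present in 14 of 31 genes, 45.2%, and in 4.46% of all 27305 genes. The 14 sites are given below in the direction of the motif, 5′ to 3′, with the core in capitals and up to 10 bases on either side.
AARS: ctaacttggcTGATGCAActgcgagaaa
CARS: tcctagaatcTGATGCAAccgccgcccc
GARS: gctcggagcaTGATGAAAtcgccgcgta
IARS: cgcacggaggTGATGCAAcgcgctgaaa
MARS: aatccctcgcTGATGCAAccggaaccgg
NARS: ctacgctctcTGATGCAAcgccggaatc
TARS: ctggaccagcTGATGCAAtcgaaaggcg
ASNS: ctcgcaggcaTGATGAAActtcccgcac
GOT1: ctgccgagaaTGATGCAAccaatgcaat
SLC3A2: ggagcTGATGTAAggagtcctgc
SLC7A1: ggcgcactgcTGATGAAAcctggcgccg
SLC1A4: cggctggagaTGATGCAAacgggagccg
SLC1A5: aggaagtggcTGATGCAAgctgtccagg
SLC38A1: cagacccgaaTGATGAAAagggatcagc

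Of the 14 sites, 9 read TGATGCAA, 4 read TGATGAAA and the SLC3A2 site reads TGATGTAA. Where a gene has several windows, the core is in only 1 of them. For SLC1A5 that is window 3 of 3 (chr19:47288022-47288321 on GRCh37), which lies inside the gene (chr19:47278140-47291851). For GARS and SLC1A4 it is window 2 of 2. The windows with the core of GARS, MARS, NARS, TARS, SLC3A2, SLC1A4 and SLC38A1 also lie wholly inside the annotated spans of these genes. On GRCh37 (hg19), to which each window was matched exactly, the AARS stretch lies at chr16:70323579-70323606 (plus strand), the CARS stretch at chr11:3078638-3078665 (plus strand), the MARS stretch at chr12:57881837-57881864 (minus strand) and the SLC1A4 stretch at chr2:65216516-65216543 (minus strand). The ASNS site is the best known of them and lies 68 bases before the start. Its promoter window, chr7:97501671-97501970 on the minus strand of GRCh37, reads as follows, with the core in capitals.
ASNS promoter: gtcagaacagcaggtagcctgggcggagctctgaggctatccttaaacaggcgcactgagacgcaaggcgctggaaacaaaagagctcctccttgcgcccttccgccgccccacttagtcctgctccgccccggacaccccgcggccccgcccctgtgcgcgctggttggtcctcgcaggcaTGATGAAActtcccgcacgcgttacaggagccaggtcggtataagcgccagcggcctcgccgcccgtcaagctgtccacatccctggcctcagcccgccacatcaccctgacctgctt

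WARS is shown beside it as 1 of 5 genes called higher in Panc1 knockout and lower in MiaPaCa2 knockout. Of these 5, WARS changed most in MiaPaCa2. It charges tryptophan and is known as a gene induced by interferon gamma. Neither of its windows holds TGATGNAA. Its second window, chr14:100841635-100841934 on the minus strand of GRCh37, holds the core of an interferon-stimulated response element, searched on both strands as GAAA, 2 bases of any kind and GAAA again, 55 bases before that start. This core was in 1 of the 45 windows and in 3.57% of all windows of the table. The window of MTHFD2, also 1 of the 5 genes, holds neither core.
WARS second promoter: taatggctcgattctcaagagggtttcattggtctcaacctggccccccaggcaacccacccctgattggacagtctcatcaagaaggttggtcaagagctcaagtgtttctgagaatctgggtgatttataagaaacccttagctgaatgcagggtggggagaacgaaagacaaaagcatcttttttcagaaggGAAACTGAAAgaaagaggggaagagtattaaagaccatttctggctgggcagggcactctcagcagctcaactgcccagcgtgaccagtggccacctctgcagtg

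A match is a description of the letters, not of binding, and a window without one says only that the core is not in those bases.

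In Panc1, most of the 41 genes were higher in knockout cells. Of the 41 genes, 31 were called higher and 4 lower, DARS, HARS, RARS and SHMT1, where 21.8% and 41.6% of all tested genes were called higher and lower, and 63.5% either way. The 6 genes not called were EPRS, KARS, LARS, ALDH18A1, SLC38A1 and SLC38A2. The median change was 0.55, beside a median of -0.10 over all tested genes, and thus 0.66 above it. In the 31 genes called higher, all 3 knockout libraries lay above all 3 wild-type libraries, and in the 4 called lower all 3 lay below, beside 24.7% and 45.3% of all genes. Summed over the 41 genes, Panc1 knockout libraries held 2638, 2571 and 2408 FPKM, against 1586, 1587 and 1589.9 FPKM in Panc1 wild type.

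In MiaPaCa2, most of the 41 genes were not called. Of the 41 genes, 10 were called higher and 7 lower in knockout cells, and 24 passed in neither direction, where 17.8% and 16.3% of all tested genes were called higher and lower, and 34.1% either way. All 10 called higher, AARS, CARS, GARS, SARS, PHGDH, PSAT1, ASNS, GPT2, SLC3A2 and SLC7A11, were also called higher in Panc1. Of the 7 called lower, VARS, WARS, MTHFD2, ALDH1L2 and PYCR1 were called higher in Panc1, and DARS and SHMT1 lower in both lines. The median change was 0.06, beside 0.01 over all tested genes. Knockout libraries lay above wild type without overlap in 9 of the 41 genes and below in 8, beside 23% and 20.5% of all genes. The summed level was 2544, 2741 and 2567 FPKM in MiaPaCa2 knockout, against 2729.9, 2516 and 2528 FPKM in MiaPaCa2 wild type, and these ranges overlap. With MiaPaCa2 knockout library 2 and wild-type library 1 both left out, an alternative chosen after the data were seen, 15 genes were called higher and 8 lower.

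**Figure D1:**
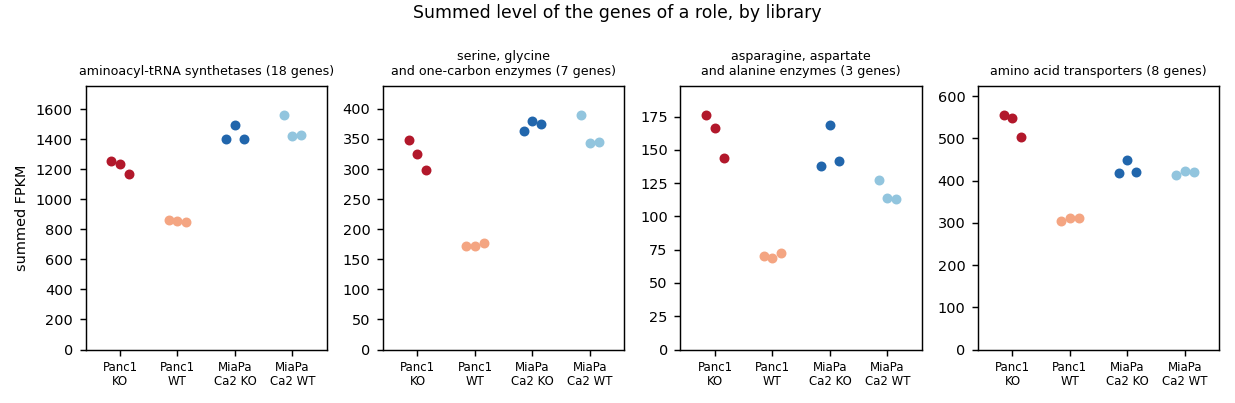
Summed FPKM of the genes of each role (vertical axes, from 0) in every library of Panc1 knockout, Panc1 wild type, MiaPaCa2 knockout and MiaPaCa2 wild type; each point is 1 library, and the roles with 3 or more genes are shown. For the 18 synthetases the Panc1 knockout libraries sit between 1169.7 and 1256 FPKM, above the wild-type libraries at 846 to 859 FPKM, while the MiaPaCa2 groups overlap.

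**Figure D2:**
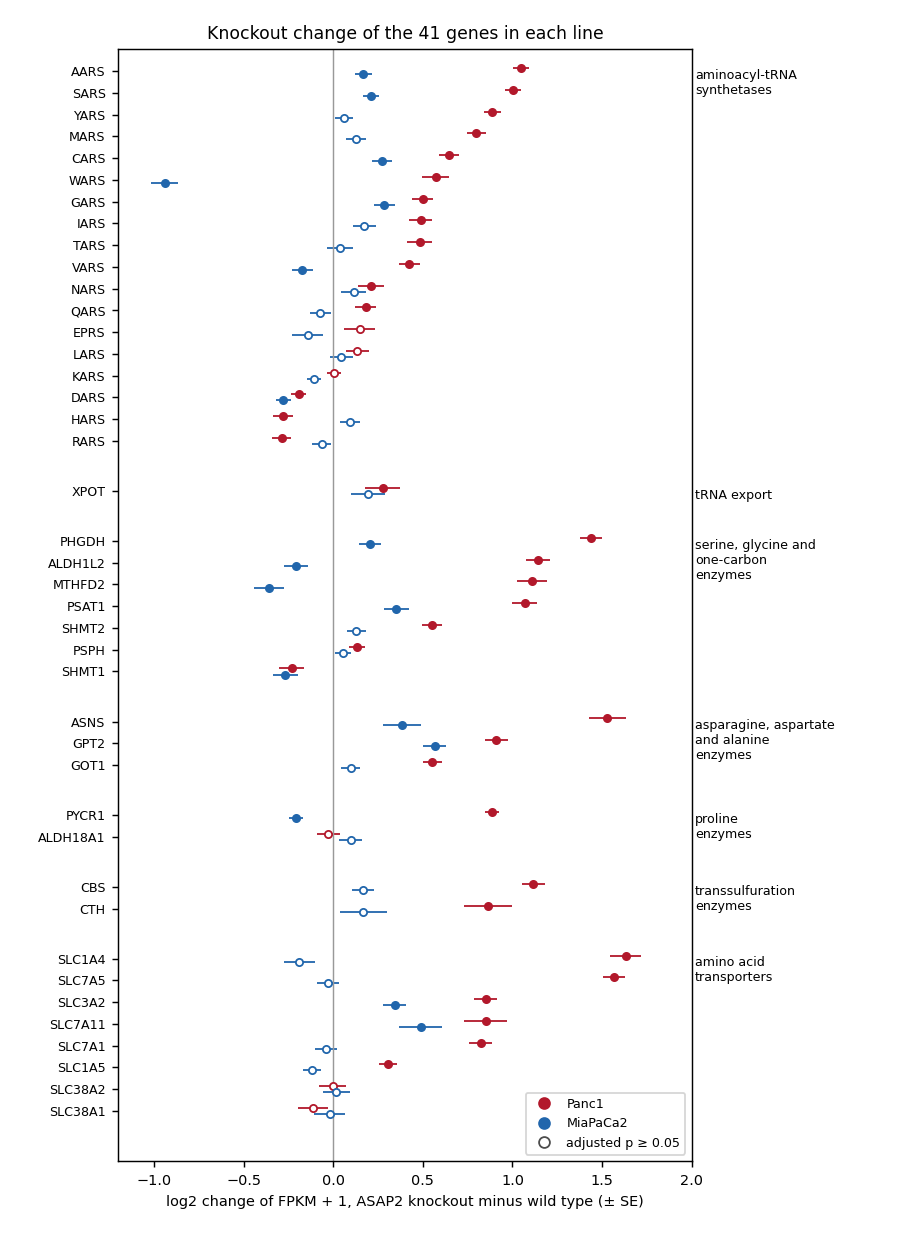
Change in knockout against wild type for each of the 41 genes (horizontal axis, difference of mean log2(FPKM + 1), with bars of 1 standard error), in Panc1 and in MiaPaCa2, grouped by role. Panc1 changes reach 1.63 for SLC1A4, and the lowest MiaPaCa2 change is that of WARS at -0.94.

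Among the 18 aminoacyl-tRNA synthetases, 12 rose and 3 fell in Panc1 knockout cells, with a median change of 0.45. In MiaPaCa2, 4 rose and 3 fell, with a median change of 0.05. AARS, which charges alanine (chr16:70285886-70323610), had 128, 126 and 119.6 FPKM in Panc1 knockout libraries, against 60.2, 59.3 and 59.6 FPKM in Panc1 wild type. That is a change of 1.05 (SE 0.05, adjusted p = 3.84e-09), with no overlap between the groups. SARS, the serine enzyme (chr1:109756540-109780804), had 117, 118 and 109.8 FPKM in Panc1 knockout and 56.2, 56.0 and 57.9 FPKM in Panc1 wild type, a change of 1.0 (SE 0.04, adjusted p = 3.85e-09). YARS, for tyrosine (chr1:33240838-33283632), had 97.1, 94.3 and 93.4 FPKM in Panc1 knockout and 51.2, 50.2 and 51.1 FPKM in Panc1 wild type, and changed by 0.89 (adjusted p = 2.86e-08). In all of these the knockout libraries were the higher ones in Panc1, each by more than the spread within a group.

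MARS, for methionine (chr12:57869228-57911352), had 128, 120.2 and 116 FPKM in Panc1 knockout and 66.9, 70.3 and 71.1 FPKM in Panc1 wild type, and changed by 0.80 (adjusted p = 1.36e-07). CARS, for cysteine (chr11:3022152-3078843), had 98.0, 91.2 and 85.9 FPKM in Panc1 knockout and 58.5, 58.9 and 57.4 FPKM in Panc1 wild type, and changed by 0.64 (adjusted p = 9.9e-07). Neither pair of groups overlapped. GARS, IARS, TARS, VARS, NARS and QARS also rose in Panc1, by 0.50, 0.49, 0.48, 0.42, 0.21 and 0.18. NARS and QARS lost the call when single libraries were left out, with adjusted p up to 0.0805 for NARS and 0.0707 for QARS. EPRS, KARS and LARS changed by 0.15, 0.00 and 0.13 without passing the test. XPOT, which carries tRNA out of the nucleus, averaged 42.3 ± 3.67 FPKM in Panc1 knockout and 34.7 ± 0.870 FPKM in Panc1 wild type (SD, n = 3 each). Its change of 0.27 passed (adjusted p = 0.0245) but not without some single libraries, with adjusted p up to 0.0962.

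The synthetases that fell in Panc1 were DARS, HARS and RARS, for aspartate, histidine and arginine. HARS (chr5:140052620-140071122) had 20.5, 20.6 and 21.4 FPKM in Panc1 knockout, against 25.5, 25.7 and 25.4 FPKM in Panc1 wild type, a change of -0.28 (adjusted p = 0.000655). RARS (chr5:167913456-167946306) had 31.9, 31.1 and 30.2 FPKM in Panc1 knockout, against 39.7, 38.7 and 36.1 FPKM in Panc1 wild type, a change of -0.29 (adjusted p = 0.000504). DARS (chr2:136663451-136743670) had 19.2, 18.2 and 17.8 FPKM in Panc1 knockout, against 21.2, 21.2 and 20.9 FPKM in Panc1 wild type, a change of -0.19 (adjusted p = 0.00162). These changes are small, although no libraries overlap. In Panc1 the 575 tested genes of chromosome 5 had a median change of -0.18 relative to all genes, and with each chromosome's median taken off HARS and RARS turned to 0.04 each and were not called. The part of the chromosome in them was not tested further. DARS lost the call with median-ratio scaling (-0.06, adjusted p = 0.201).

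In MiaPaCa2 the synthetases called higher were AARS, CARS, GARS and SARS. CARS had 40.4, 46.0 and 41.5 FPKM in MiaPaCa2 knockout, against 36.3, 34.4 and 34.5 FPKM in MiaPaCa2 wild type, a change of 0.27 (adjusted p = 0.00276). GARS, for glycine, had 198, 230.4 and 202 FPKM in MiaPaCa2 knockout, against 181, 167 and 168 FPKM in MiaPaCa2 wild type, a change of 0.28 (adjusted p = 0.00316). SARS had 89.0, 99.0 and 95.7 FPKM in MiaPaCa2 knockout, against 82.1, 79.5 and 82.7 FPKM in MiaPaCa2 wild type, a change of 0.21 (adjusted p = 0.00317). The groups of these 3 genes did not overlap. AARS had 144, 155 and 147 FPKM in MiaPaCa2 knockout and 141, 127 and 128 FPKM in MiaPaCa2 wild type, also without overlap. Its change was 0.17 (adjusted p = 0.0149), and the call was lost without wild-type library 2 or 3, with adjusted p of 0.0653 and 0.0643.

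WARS was the gene of the 41 that fell most in MiaPaCa2. The gene (chr14:100800127-100843142) had 125, 148 and 125 FPKM in MiaPaCa2 knockout, against 288, 244 and 235 FPKM in MiaPaCa2 wild type, a change of -0.94 (SE 0.08, adjusted p = 2.86e-06). In Panc1 it had 49.2, 49.0 and 50.3 FPKM in knockout, against 32.4, 34.2 and 32.4 FPKM in wild type, a change of 0.57 (SE 0.08, adjusted p = 3.62e-05). The groups did not overlap in either line, and the directions were opposite. Relative to all genes, the 100 genes tested within 10 Mb of WARS had a median change of -0.25 in MiaPaCa2 and 0.10 in Panc1. Their part in the WARS change was not tested. WARS was called lower in MiaPaCa2 under each of the 24 alternatives run, between -1.02 and -0.85. DARS fell in MiaPaCa2 too, with 29.3, 29.9 and 29.0 FPKM in knockout against 36.2, 34.3 and 37.3 FPKM in wild type, a change of -0.28 (adjusted p = 0.000368) without overlap. The 40 genes tested within 10 Mb of DARS had a median change of -0.17 relative to all genes in MiaPaCa2. With each chromosome's median taken off, DARS was at -0.12 (adjusted p = 0.0379). The part of the neighbouring genes in the DARS change was not tested further. VARS, for valine, changed by -0.17 (adjusted p = 0.0385), a call lost without any single MiaPaCa2 library but knockout library 3, with adjusted p up to 0.124. MARS and YARS averaged 59.2 ± 3.56 and 80.0 ± 2.94 FPKM in MiaPaCa2 knockout, against 54.1 ± 2.56 and 76.8 ± 5.82 FPKM in MiaPaCa2 wild type, and passed in neither direction (0.13 and 0.06).

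Strand was not stated for the counting, so reads of a gene that overlaps another on the opposite strand cannot be told apart. Among the genes named here this concerns, for example, AARS with DDX19B, CARS with CARS-AS1, DARS with DARS-AS1, HARS with HARS2 and WDR55, KARS with TERF2IP, MARS with DDIT3, WARS with WDR25, YARS with S100PBP, SHMT1 with SMCR8, MTHFD2 with SLC4A5, and ALDH1L2 with C12orf45 and WASHC4. HARS also overlaps DND1 on its own strand. SLC7A5 and PSPH have near-identical pseudogene copies, so their levels are uncertain.

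Of the 7 enzymes of serine, glycine and one-carbon metabolism, 6 rose and SHMT1 fell in Panc1, with a median change of 1.07. PHGDH, the first enzyme of serine synthesis (chr1:120191034-120286841), had 31.3, 31.4 and 30.3 FPKM in Panc1 knockout, against 10.8, 10.7 and 10.9 FPKM in Panc1 wild type, a change of 1.44 (SE 0.06, adjusted p = 2.73e-09). PSAT1, the aminotransferase that follows it (chr9:80912041-80945009), had 97.3, 86.2 and 80.6 FPKM in Panc1 knockout, against 41.1, 41.2 and 41.7 FPKM in Panc1 wild type, a change of 1.07 (SE 0.07, adjusted p = 1.12e-07). For both, each Panc1 knockout library was above each wild-type library. PSPH, the phosphatase that completes serine, had 22.4, 21.1 and 21.4 FPKM in Panc1 knockout and 19.5, 19.4 and 19.9 FPKM in Panc1 wild type. Its change of 0.13 passed (adjusted p = 0.019) but not when some single Panc1 libraries were left out, with adjusted p up to 0.0654.

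MTHFD2, ALDH1L2 and SHMT2 of the 7 act in mitochondria. MTHFD2, a methylene-tetrahydrofolate dehydrogenase and cyclohydrolase (chr2:74413299-74444692), had 124, 112 and 95.8 FPKM in Panc1 knockout, against 48.9, 50.3 and 52.6 FPKM in Panc1 wild type, a change of 1.11 (SE 0.08, adjusted p = 3.48e-07). ALDH1L2, which oxidises formyl-tetrahydrofolate (chr12:105413562-105501421), is a low gene, with 2.77, 2.72 and 2.53 FPKM in Panc1 knockout, against 0.707, 0.676 and 0.610 FPKM in Panc1 wild type, a change of 1.14 (SE 0.07, adjusted p = 4.25e-08). SHMT2, the mitochondrial serine hydroxymethyltransferase (chr12:57623356-57628718), had 63.0, 63.5 and 59.7 FPKM in Panc1 knockout, against 42.8, 40.8 and 42.5 FPKM in Panc1 wild type, a change of 0.55 (adjusted p = 2.8e-06). None of these groups overlapped. SHMT1, its cytosolic counterpart, had 7.37, 7.21 and 7.35 FPKM in Panc1 knockout, against 8.73, 8.49 and 9.07 FPKM in Panc1 wild type, a change of -0.23 (adjusted p = 0.011). With median-ratio scaling SHMT1 was at -0.11 and not called (adjusted p = 0.176).

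In MiaPaCa2, 2 of the 7 rose and 3 fell, with a median change of 0.05. PSAT1 had 99.4, 108 and 106 FPKM in MiaPaCa2 knockout, against 90.1, 77.5 and 77.5 FPKM in MiaPaCa2 wild type, a change of 0.35 (adjusted p = 0.00238) in groups that did not overlap. PHGDH had 52.4, 55.9 and 53.7 FPKM in MiaPaCa2 knockout and 52.7, 44.5 and 43.5 FPKM in MiaPaCa2 wild type, a change of 0.20 (adjusted p = 0.0219). The PHGDH groups overlapped through wild-type library 1, and the call was lost without knockout library 2 or wild-type library 2 or 3, with adjusted p up to 0.1. MTHFD2 fell, with 64.0, 71.8 and 62.3 FPKM in MiaPaCa2 knockout against 90.9, 80.9 and 82.8 FPKM in MiaPaCa2 wild type, a change of -0.36 (adjusted p = 0.0063) in groups that did not overlap. The 83 genes tested within 10 Mb of MTHFD2 had a median change of -0.40 relative to all genes in MiaPaCa2. With chromosome medians taken off, MTHFD2 was at -0.20 and not called (adjusted p = 0.0687).

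ALDH1L2 had 0.726, 1.0 and 0.825 FPKM in MiaPaCa2 knockout and 1.27, 1.03 and 1.10 FPKM in MiaPaCa2 wild type, a change of -0.21 (adjusted p = 0.0315). That call was lost without knockout library 1 or 3 or wild-type library 1 or 3, with adjusted p up to 0.129. SHMT1 fell here too, with 26.7, 22.2 and 28.2 FPKM in MiaPaCa2 knockout against 31.2, 30.6 and 31.3 FPKM in MiaPaCa2 wild type, a change of -0.27 (adjusted p = 0.0107) without overlap. The SHMT1 call was lost with each line fitted alone (adjusted p = 0.0733). SHMT2 had 79.8, 79.7 and 81.8 FPKM in MiaPaCa2 knockout and 81.1, 70.0 and 69.8 FPKM in MiaPaCa2 wild type, overlapping groups with a change of 0.13 that did not pass (adjusted p = 0.0861). PSPH changed by 0.05 and was not called.

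All 3 enzymes of asparagine, aspartate and alanine rose in Panc1. ASNS, which makes asparagine (chr7:97480989-97501854) and whose promoter is printed above, had 122, 114 and 96.1 FPKM in Panc1 knockout, against 36.9, 36.2 and 39.4 FPKM in Panc1 wild type, a change of 1.53 (SE 0.10, adjusted p = 1.43e-07). GPT2, the mitochondrial alanine aminotransferase (chr16:46918274-46965201), had 9.46, 9.58 and 8.69 FPKM in Panc1 knockout, against 4.42, 4.44 and 4.48 FPKM in Panc1 wild type, a change of 0.91 (SE 0.07, adjusted p = 2.23e-07). GOT1, the cytosolic aspartate aminotransferase (chr10:101156627-101190381), had 45.1, 42.8 and 39.3 FPKM in Panc1 knockout, against 29.1, 28.0 and 28.5 FPKM in Panc1 wild type, a change of 0.55 (adjusted p = 2.33e-06). All 3 separate the groups completely. The 604 tested genes of chromosome 7 had a median change of -0.24 relative to all genes in Panc1, and their part in the ASNS change was not tested.

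GPT2 rose in MiaPaCa2, with 16.9, 18.5 and 16.6 FPKM in knockout against 12.4, 10.3 and 11.5 FPKM in wild type, a change of 0.57 (SE 0.07, adjusted p = 5.07e-05). ASNS had 87.3, 113 and 89.6 FPKM in MiaPaCa2 knockout, against 81.1, 69.7 and 70.0 FPKM in MiaPaCa2 wild type, a change of 0.38 (SE 0.10, adjusted p = 0.0133). Neither gene overlapped between the groups, but the ASNS call was lost without wild-type library 2 or 3, with adjusted p of 0.0519 and 0.0507. GOT1 had 33.8, 37.1 and 35.7 FPKM in MiaPaCa2 knockout and 33.7, 33.9 and 31.9 FPKM in MiaPaCa2 wild type, and its change of 0.10 did not pass (adjusted p = 0.189).

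The enzymes of proline synthesis parted. PYCR1, the mitochondrial pyrroline-5-carboxylate reductase that makes proline (chr17:79890260-79900288), had 172, 172 and 170.4 FPKM in Panc1 knockout, against 91.0, 92.2 and 93.3 FPKM in Panc1 wild type, a change of 0.89 (SE 0.04, adjusted p = 4.89e-09). In MiaPaCa2 it fell, with 56.6, 61.1 and 59.4 FPKM in knockout against 71.4, 65.4 and 68.4 FPKM in wild type, a change of -0.21 (SE 0.04, adjusted p = 0.00191). The groups did not overlap in either line. ALDH18A1, which makes the precursor of proline from glutamate, averaged 27.4 ± 1.74 FPKM in Panc1 knockout and 27.9 ± 0.776 FPKM in Panc1 wild type, and 39.5 ± 3.75 FPKM in MiaPaCa2 knockout and 36.7 ± 1.19 FPKM in MiaPaCa2 wild type (SD, n = 3 each). Its changes of -0.03 and 0.10 passed in neither line.

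Both enzymes of transsulfuration, which turn homocysteine into cysteine, rose in Panc1. CBS, the first of them (chr21:44473301-44497053), had 55.0, 55.9 and 52.0 FPKM in Panc1 knockout, against 25.5, 23.2 and 24.7 FPKM in Panc1 wild type, a change of 1.12 (SE 0.06, adjusted p = 2.73e-08). CTH, which releases cysteine (chr1:70876901-70905534), had 2.81, 2.40 and 2.29 FPKM in Panc1 knockout, against 1.01, 0.785 and 0.968 FPKM in Panc1 wild type, a change of 0.86 (SE 0.13, adjusted p = 0.000108). Neither pair of groups overlapped. In MiaPaCa2, CBS had 82.2, 91.6 and 80.8 FPKM in knockout and 81.9, 73.1 and 71.4 FPKM in wild type, a change of 0.17 that did not pass (adjusted p = 0.0558). CTH had 8.20, 13.0 and 8.53 FPKM in MiaPaCa2 knockout and 9.28, 8.29 and 8.06 FPKM in MiaPaCa2 wild type, also a change of 0.17 that did not pass (adjusted p = 0.364). Knockout library 2 is the one high value of CTH.

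Of the 8 transporters, 6 rose in Panc1 and the other 2 were not called, with a median change of 0.84. SLC1A4, a carrier of alanine, serine, cysteine and threonine (chr2:65215611-65250999), had 10.9, 11.3 and 10.7 FPKM in Panc1 knockout, against 2.73, 2.81 and 3.02 FPKM in Panc1 wild type, a change of 1.63 (SE 0.09, adjusted p = 1.53e-08). SLC7A5, the light chain of the large neutral amino acid exchanger LAT1 (chr16:87863629-87903113), had 228, 232 and 203 FPKM in Panc1 knockout, against 72.0, 73.3 and 76.0 FPKM in Panc1 wild type, a change of 1.57 (SE 0.06, adjusted p = 1.6e-09). SLC3A2, the heavy chain 4F2hc that SLC7A5 and SLC7A11 need at the membrane (chr11:62623476-62656352), had 99.6, 96.7 and 88.8 FPKM in Panc1 knockout, against 52.8, 51.6 and 52.1 FPKM in Panc1 wild type, a change of 0.85 (SE 0.06, adjusted p = 3.22e-07). These groups did not overlap.

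SLC7A11, the light chain of the cystine-glutamate exchanger (chr4:139085251-139163503), had 3.39, 2.95 and 2.37 FPKM in Panc1 knockout, against 1.21, 1.19 and 1.06 FPKM in Panc1 wild type, a change of 0.85 (SE 0.12, adjusted p = 5.84e-05). SLC7A1, which imports arginine and lysine (chr13:30083551-30169825), had 28.3, 27.2 and 24.9 FPKM in Panc1 knockout, against 14.7, 14.4 and 15.0 FPKM in Panc1 wild type, a change of 0.82 (SE 0.06, adjusted p = 3.57e-07). SLC1A5, the glutamine exchanger ASCT2, averaged 91.2 ± 4.04 FPKM in Panc1 knockout and 73.7 ± 2.78 FPKM in Panc1 wild type (SD, n = 3 each), a change of 0.30 (adjusted p = 0.000207). All 3 rose without overlap. The sodium-coupled neutral carriers SLC38A1 and SLC38A2 did not pass in Panc1. SLC38A1 averaged 36.3 ± 2.57 FPKM in knockout and 39.3 ± 0.435 FPKM in wild type, and SLC38A2 52.0 ± 6.64 FPKM in knockout and 51.9 ± 0.926 FPKM in wild type.

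Only SLC3A2 and SLC7A11 of the 8 transporters were called in MiaPaCa2, both higher. SLC3A2 had 86.4, 72.9 and 86.6 FPKM in MiaPaCa2 knockout, against 61.6, 64.8 and 66.2 FPKM in MiaPaCa2 wild type, a change of 0.34 (SE 0.06, adjusted p = 0.00153). SLC7A11 had 1.70, 2.76 and 1.73 FPKM in MiaPaCa2 knockout, against 1.20, 1.12 and 1.15 FPKM in MiaPaCa2 wild type, a change of 0.49 (SE 0.12, adjusted p = 0.00829). Both separated the groups, SLC7A11 at low levels with knockout library 2 the highest. SLC7A5 had 92.3, 107 and 94.6 FPKM in MiaPaCa2 knockout and 101, 102 and 96.7 FPKM in MiaPaCa2 wild type, overlapping groups with a change of -0.03 (adjusted p = 0.756). SLC7A1 likewise overlapped, with 22.4, 26.1 and 24.2 FPKM in MiaPaCa2 knockout and 23.6, 26.3 and 24.9 FPKM in MiaPaCa2 wild type, a change of -0.04 (adjusted p = 0.68). SLC1A4 had 3.04, 4.27 and 3.23 FPKM in MiaPaCa2 knockout and 3.83, 4.29 and 4.23 FPKM in MiaPaCa2 wild type, a change of -0.19 that did not pass (adjusted p = 0.111). The 112 genes tested within 10 Mb of SLC1A4 had a median change of -0.40 relative to all genes in MiaPaCa2. Their part in the SLC1A4 value was not tested. SLC1A5, SLC38A1 and SLC38A2 changed by -0.12, -0.02 and 0.02 and were not called.

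**Figure D3:**
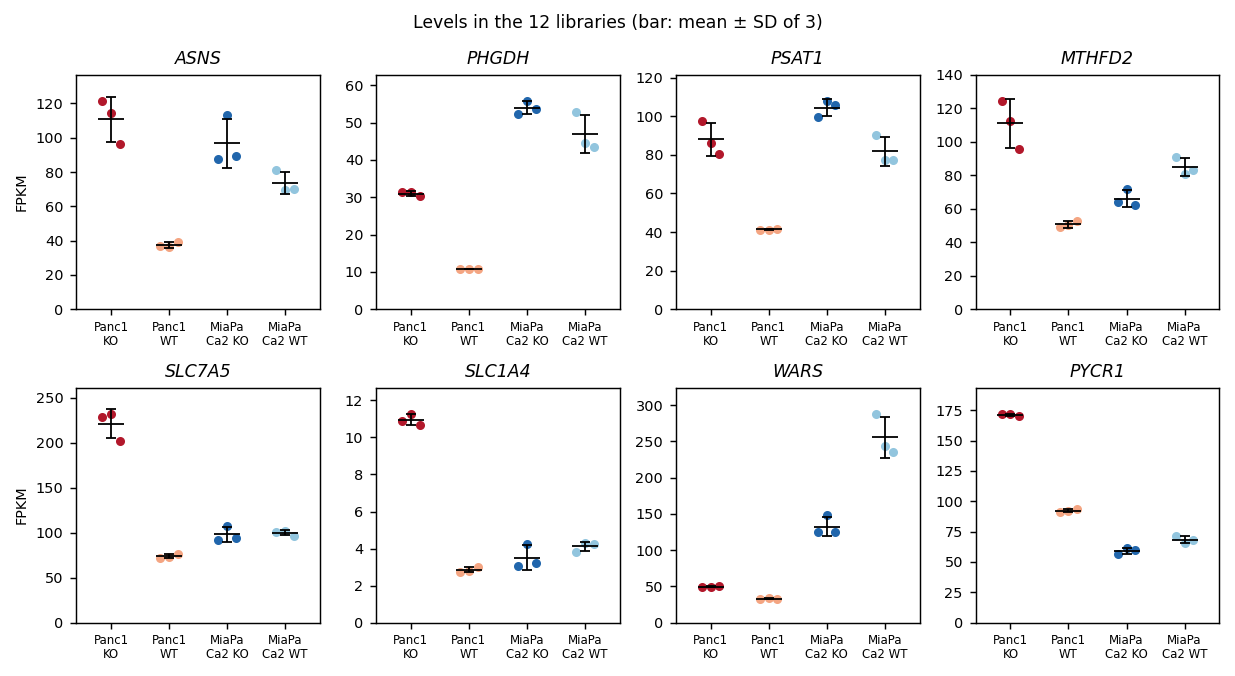
FPKM in every library (vertical axes, from 0; each point is 1 library, and lines with bars give the mean ± SD of 3) for ASNS, PHGDH, PSAT1, MTHFD2, SLC7A5, SLC1A4, WARS and PYCR1, in Panc1 knockout, Panc1 wild type, MiaPaCa2 knockout and MiaPaCa2 wild type. WARS is at 125 to 148 FPKM in MiaPaCa2 knockout and 235 to 288 FPKM in MiaPaCa2 wild type, and lies higher in knockout than in wild type in Panc1.

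The size of the knockout change differed between the lines in most of these genes. A test of the difference, Panc1 change minus MiaPaCa2 change, was passed by 29 of the 41 genes, 27 with the more positive change in Panc1 and 2, HARS and RARS, with the more positive change in MiaPaCa2. Over all tested genes 20% passed in the first direction, 37.4% in the second and 57.4% in either. Differences included 1.82 for SLC1A4, 1.60 for SLC7A5, 1.51 for WARS, 1.47 for MTHFD2 and 1.35 for ALDH1L2. Among the 27 were 5 transporters, all 3 enzymes of asparagine, aspartate and alanine, and both of transsulfuration. For SLC7A11 the difference was 0.36 and did not pass (adjusted p = 0.0852). The difference of RARS, -0.22 (adjusted p = 0.0245), was not called without Panc1 knockout library 3, Panc1 wild-type library 1 or 2, MiaPaCa2 knockout library 1 or MiaPaCa2 wild-type library 2, with adjusted p of 0.0529 to 0.0648. Across the 41 genes the changes of the 2 lines had a Pearson correlation of 0.23 and a Spearman correlation of 0.30, given as a description over genes that share libraries within each line. Over all tested genes the Pearson correlation was 0.06.

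**Figure D4:**
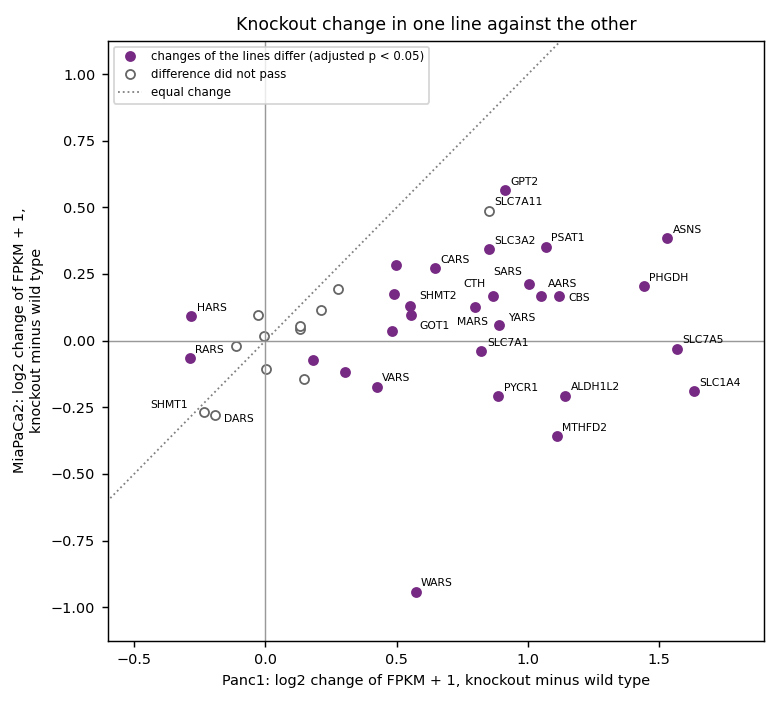
Change in knockout against wild type in Panc1 (horizontal axis) and in MiaPaCa2 (vertical axis), each as the difference of mean log2(FPKM + 1), for the 41 genes; each point is 1 gene, filled where the difference between the lines passed the test, and the dotted line marks equal changes. WARS, MTHFD2, PYCR1, ALDH1L2 and VARS lie at the lower right, higher in Panc1 knockout and lower in MiaPaCa2 knockout.

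Most of the 41 genes were lower in wild-type Panc1 than in wild-type MiaPaCa2. In Panc1 wild type 5 of the 41 genes, CARS, MARS, VARS, PYCR1 and SLC38A1, were called higher than in MiaPaCa2 wild type and 31 lower, where 41.8% and 40.9% of all tested genes were called higher and lower, and 82.7% either way. The median difference, Panc1 minus MiaPaCa2, was -0.63 and that over all tested genes 0.00. Panc1 wild-type libraries lay above all MiaPaCa2 wild-type libraries in 5 genes and below in 30, beside 42.8% and 42.1% of all genes. WARS was at 33.0 ± 1.04 FPKM in Panc1 wild type and 255 ± 28.4 FPKM in MiaPaCa2 wild type (SD, n = 3 each), a difference of -2.91 (adjusted p = 9.35e-13). CTH differed by -2.31, PHGDH by -2.02, SHMT1 by -1.71 and CBS by -1.58. All 7 enzymes of serine, glycine and one-carbon metabolism were lower in Panc1 wild type. SLC7A11 was at 1.15 ± 0.0801 FPKM in Panc1 wild type and 1.16 ± 0.0417 FPKM in MiaPaCa2 wild type and did not pass. This comparison shares its wild-type libraries with the knockout comparisons.

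Calls were counted by the presence of the C/EBP-ATF core in a window, as a description. Of the 14 with a match, 13 were called higher in Panc1 knockout, all but SLC38A1, with a median change of 0.60. Of the 17 with a window and no match, 10 were called higher and 3 lower, with a median of 0.27. Of the 10 without a window, 8 were called higher. Over all tested genes, 28.5% of the 263 with a match and 22% of the 9913 without were called higher in Panc1, with medians of -0.03 and -0.11. These shares include the listed genes, the 13 above among them, and are not independent of them. In MiaPaCa2, 5 of the 14 genes with a match were called higher, AARS, CARS, GARS, ASNS and SLC3A2, with a median of 0.12, and 3 of the 17 without, with a median of 0.02. Over all tested genes, the listed ones again included, 24.7% of those with a match and 17.7% of those without were called higher in MiaPaCa2. PHGDH, PSAT1 and SLC7A5, which rose in Panc1, have windows with no match.

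**Figure D5:**
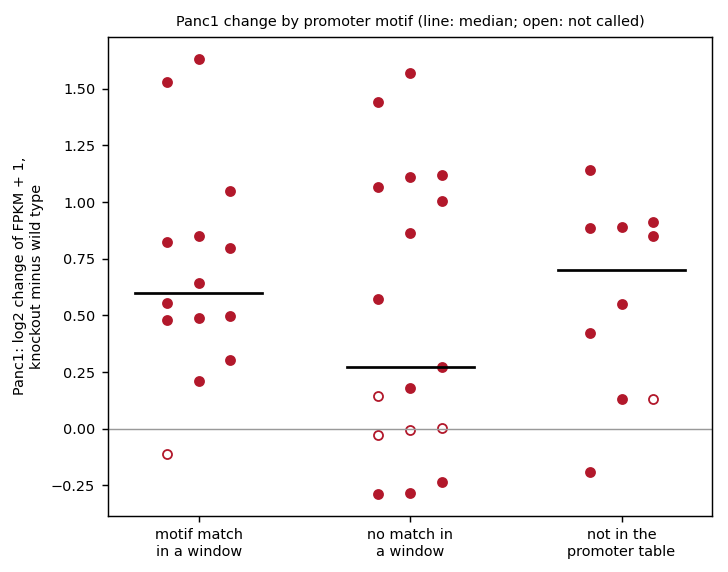
Change in knockout against wild type in Panc1 (vertical axis, difference of mean log2(FPKM + 1)) for the 14 genes with a C/EBP-ATF core in a promoter window, the 17 with windows and none, and the 10 with no window; each point is 1 gene, open where not called, and each line the median. The medians are 0.60, 0.27 and 0.70.

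Beyond the 41 genes, 20 regulators and other targets of the ATF4 arm of the integrated stress response were measured. Of these, 13 rose and 2 fell in Panc1, with a median change of 0.72, and 11 rose and 1 fell in MiaPaCa2, with a median of 0.40. ATF5 and EIF2AK3 were the 2 that fell in Panc1, by -0.45 (adjusted p = 9.99e-07) and -0.41 (adjusted p = 0.000196). EIF2AK2 was the 1 that fell in MiaPaCa2, by -0.29 (adjusted p = 0.00042). Over all tested genes, 21.8% were called higher and 41.6% lower in Panc1, with a median change of -0.10. In MiaPaCa2 these shares were 17.8% and 16.3%, with a median of 0.01. The mRNA of ATF4 had 265, 247 and 217 FPKM in Panc1 knockout, against 109.9, 109.5 and 111 FPKM in Panc1 wild type, a change of 1.13 (adjusted p = 1.95e-07). In MiaPaCa2 it had 197, 215 and 192 FPKM in knockout, against 163, 134 and 138 FPKM in wild type, a change of 0.47 (adjusted p = 0.000796). Neither pair overlapped. CHAC1, which degrades glutathione, averaged 25.7 ± 2.12 FPKM in Panc1 knockout and 3.43 ± 0.404 FPKM in Panc1 wild type, and 12.7 ± 0.465 FPKM in MiaPaCa2 knockout and 6.26 ± 0.697 FPKM in MiaPaCa2 wild type, changes of 2.59 and 0.92. The feedback genes SESN2 and TRIB3 rose by 1.94 and 1.83 in Panc1 and by 0.70 and 0.84 in MiaPaCa2. The mTORC1 inhibitor DDIT4 rose by 1.75 in Panc1 and by 1.25 in MiaPaCa2. The growth factor VEGFA rose by 0.93 in MiaPaCa2, and its change of -0.16 in Panc1 was not called.

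Related genes outside the list were counted beside the shares of all tested genes called higher and lower, 21.8% and 41.6% in Panc1 and 17.8% and 16.3% in MiaPaCa2, and counts near those shares say nothing particular to a list. Of 17 mitochondrial synthetases, 3 rose and 6 fell in Panc1, with a median change of -0.09, and 1 rose and 4 fell in MiaPaCa2. IARS2 and HARS2, the mitochondrial isoleucine and histidine enzymes, fell by 0.57 and 0.55 in Panc1. HARS2 overlaps HARS on the other strand and lies on chromosome 5, whose tested genes had a Panc1 median of -0.18 relative to all genes. The part of either in the HARS2 change was not tested. Of the 5 scaffold proteins of the synthetase complex and subunits of the phenylalanine enzyme, AIMP1, EEF1E1 and AIMP2 fell in Panc1, FARSB and AIMP2 fell in MiaPaCa2, and the others were not called. Among 14 tested genes of the glycine and one-carbon pathway, 3 rose and 6 fell in Panc1, and 2 rose and 4 fell in MiaPaCa2. MTHFD1L, the mitochondrial enzyme that releases formate, averaged 37.7 ± 3.12 FPKM in Panc1 knockout and 22.2 ± 0.267 FPKM in Panc1 wild type (SD, n = 3 each), a change of 0.74. DLD, a subunit of the glycine cleavage system, fell by 0.77 in Panc1. It lies on chromosome 7, whose tested genes had a Panc1 median of -0.24 relative to all genes. The part of the chromosome in the DLD change was not tested.

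Of 15 tested enzymes of proline, arginine and glutamate, 6 rose and 4 fell in Panc1, and 3 rose and 5 fell in MiaPaCa2. ASS1, which makes argininosuccinate for arginine synthesis, had 9.73, 10.1 and 10.8 FPKM in Panc1 knockout, against 2.85, 1.94 and 1.94 FPKM in Panc1 wild type, a change of 1.80 (adjusted p = 5.04e-08). GLUL, glutamine synthetase, had 0.206, 0.230 and 0.210 FPKM in Panc1 knockout, against 2.84, 2.90 and 3.20 FPKM in Panc1 wild type, a change of -1.71 (adjusted p = 1.3e-10), and was at 0 in all MiaPaCa2 libraries. Both were without overlap in Panc1. In MiaPaCa2 the branched-chain aminotransferase BCAT1 rose by 0.56 and the pyrimidine enzyme CAD fell by 0.47. Of 12 tested amino acid transporters outside the list, 4 rose and 3 fell in Panc1, and 4 were called in MiaPaCa2, all higher, led by SLC43A1, a carrier of large neutral amino acids, at 0.64.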

How the data were processed

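RNA-seq of 12 libraries, 3 each of ASAP2 knockout and wild-type Panc1 and MiaPaCa2 cells, was used. Each deposited file holds 1 library's FPKM by gene symbol. The authors aligned reads to hg19 with TopHat2 2.0.14 and calculated FPKM with STAR 2.5.2a, per the submitters' processing notes and the series design text. For library preparation, strand, read length and read number the sources used here give nothing. Depth is unknown. Between Panc1 wild-type library 1 and each other library of either line, the most common ratio of low values lay at -0.06 to 0 (log2). That ratio held only 3.3 to 9% of genes, so whole reads were not recovered, no count test was run and no counting interval is given.

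Genes missing from a library were set to 0. log2(FPKM + 1) was fitted with limma 3.58.1 in R 4.3.3, with a mean for each of the 4 groups, 8 residual degrees of freedom, and moderation by a trended empirical Bayes prior. Tests were two-sided, with Benjamini-Hochberg adjustment over the 13340 genes that averaged 1 FPKM or more in the 6 libraries of either line. With 3 libraries against 3 an exact permutation test of 1 gene cannot go below 0.1.

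Positions are GENCODE release 44 on GRCh37, and promoter windows are RefSeq's (GRCh38.p14), matched exactly to GRCh37. Values of every library are printed for members that changed by at least 0.5 in a line and were called. Further members are named where a count rests on them. Of other lists, up to 3 called genes with the largest change per line are named. ATF4, ASAP2 and the genes of the ATF4 arm that fell are named in any case. Some genes are not reported here. The members and lists were chosen with earlier results of these data known. The alternatives were another pseudocount (0.1), no filter or one of 5 FPKM, TPM, median-ratio and quantile scaling, no trend, array weights, each line alone, the replicate block, chromosome medians taken off, each library left out, and 1 chosen after the data were seen.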

Additional observations from a re-analysis of the deposited data

Results flagged for a closer look

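For 29 of the 41 genes the knockout change differed between the lines, by limma's test of the Panc1 change minus the MiaPaCa2 change (differences of log2 values, Benjamini-Hochberg adjusted p below 0.05 over 13340 genes). The change was the more positive one in Panc1 for 27 of them, where 20% of all tested genes passed that way, and in MiaPaCa2 for 2, where 37.4% did. Over all tested genes 57.4% passed in either direction.

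Transporters had differences of 1.82 for SLC1A4, 1.60 for SLC7A5, 0.86 for SLC7A1, 0.51 for SLC3A2 and 0.42 for SLC1A5. The serine and one-carbon enzymes had 1.47 for MTHFD2, 1.35 for ALDH1L2, 1.24 for PHGDH, 0.72 for PSAT1 and 0.42 for SHMT2. ASNS had a difference of 1.15, GOT1 of 0.46 and GPT2 of 0.35. PYCR1 had 1.10, CBS 0.95 and CTH 0.70.

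Synthetases had differences of 1.51 for WARS, 0.88 for AARS, 0.83 for YARS, 0.79 for SARS, 0.67 for MARS, 0.60 for VARS, 0.44 for TARS, 0.37 for CARS, 0.31 for IARS, 0.25 for QARS and 0.21 for GARS. HARS and RARS had negative differences, -0.37 and -0.22. The difference of GARS had an adjusted p of 0.0459 and was not called under 14 of the alternatives. Among these were 9 of the 12 libraries left out in turn, with adjusted p up to 0.111. The TPM scale (0.196) and quantile normalization (0.434) were also among them. The difference of QARS was not called without Panc1 wild-type library 1 (adjusted p = 0.0514), on the TPM scale (0.0501), or with MiaPaCa2 knockout library 2 and wild-type library 1 both left out (0.0661). The difference of IARS was not called with quantile normalization (0.0514).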

How the results depend on the processing

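Of the calls made, 27 of 35 in Panc1 and 10 of 17 in MiaPaCa2 held under each of the 24 alternatives that tested the gene. For the difference between the lines 24 of 29 held, and between the wild-type lines 32 of 36, under each alternative that gave the comparison. Neither of these 2 comparisons can be made with each line fitted alone. The wild-type comparison was also not made with chromosome medians taken off. ALDH1L2 and SLC7A11 were not tested with a filter of 5 FPKM. Genes called higher in Panc1 numbered 28 to 31 with a library left out and 27 to 35 otherwise, beside 31. Genes called lower in Panc1 numbered 4 with any library left out, 2 with median-ratio or quantile scaling and 1 with chromosome medians taken off, beside 4. In MiaPaCa2, 7 to 14 were higher and 5 to 7 lower with a library left out, 16 were higher with quantile scaling or array weights, 11 were lower with array weights and 4 with each line fitted alone, beside 10 and 7. For the difference, 26 to 29 were higher and 1 to 3 lower with a library left out, and 1 was lower with median-ratio scaling and 0 with chromosome medians, where 27 were higher, beside 27 and 2. Between the wild-type lines, 5 to 6 were higher and 30 to 32 lower with a library left out. With chromosome medians taken off, HARS and RARS reversed to 0.0439 and 0.0387 in Panc1, and to 8.3e-05 and 0.15 for the difference. Median-ratio scaling put the median of all genes in Panc1 at 0.00, beside -0.10 as deposited. Apart from the alternatives' own construction, the cause was not tested.

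Replicate numbers did not pair the samples: deviations of same-numbered knockout and wild-type libraries correlated at 0.02, 0.03 and 0.08 in Panc1 and at -0.13, -0.17 and 0.00 in MiaPaCa2. Pairs with unlike numbers lay between -0.10 and 0.06 in Panc1 and between -0.19 and 0.25 in MiaPaCa2. The highest was MiaPaCa2 knockout library 2 with wild-type library 1. With the replicate number as a block, 31 genes were higher and 4 lower in Panc1, 9 and 5 in MiaPaCa2, 26 and 2 for the difference, and 5 and 31 between the wild-type lines. The missing depth limits ALDH1L2, SLC7A11 and CTH most, since the counting error of such low values is unknown.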
